A study of Mus musculus with 17 samples.

Results

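RNA of CD45+ cells with the sample type tumor CD45 was compared between a versikine arm (label Vkine, 3 samples) and an EV arm (3 samples). The comparison covered the 14006 of 54532 genes in the table that passed a filter on low counts. CD45, the product of Ptprc, marks white blood cells. The series holds 17 mouse samples, 6 of them in this comparison and 11 of MutuDC, a mouse dendritic cell line in the same 2 arms, with and without the bacterial lipopolysaccharide LPS. EV is taken here as empty vector, its usual reading, and no EV sample is described as untreated. The sample type of all 6 says tumor, but their source field says bone marrow. Titles are R1, R2 and R1L1 in EV and L1, L2 and L3 in Vkine, and they are called EV and Vkine replicates 1, 2 and 3 in that order. Whether R1 and R1L1 share an animal, how Vkine was delivered, the tumor line, and the strain and age of the mice are not stated in the labels. The spread that the p-values rest on is thus between samples, and it may be technical in part.

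Versican is a chondroitin sulfate proteoglycan of the extracellular matrix that binds hyaluronan and accumulates in inflamed tissue and in many tumors. ADAMTS proteases cut its core protein, and the amino-terminal fragment that this releases is versikine. Versican is known to signal to myeloid cells through Toll-like receptor 2, and versikine has been described as a matrix fragment that acts on innate immune cells. Bulk CD45+ cells of a tumor mix macrophages, monocytes, neutrophils, dendritic cells and lymphocytes, so in every result that follows fewer cells of a type and less RNA per cell cannot be told apart.

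4 genes passed the test, 3 higher and 1 lower in Vkine. That is 0.0214% of the genes tested on the higher side and 0.00714% on the lower side. A gene was called when its p from the edgeR quasi-likelihood test, adjusted by Benjamini-Hochberg over all 14006 genes, was under 0.05. Levels are library-scaled counts (CPM, on totals adjusted by TMM), and differences are log2 fold changes of Vkine against EV with their SE. The 4 genes are shown by sample in the plot of CPM by replicate, and the adjusted p of each was 0.042. The calls depended on single samples: none of the 4 was kept when EV replicate 1, 2 or 3 or Vkine replicate 3 was left out (0 to 1 genes called), Cspg4 alone was kept without Vkine replicate 2, and all 4 were kept without Vkine replicate 1.

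Saa3 encodes serum amyloid A3, an acute-phase protein that in mice is made outside the liver by macrophages and other cells. It had 8.70, 15.99 and 13.5 CPM in EV and 65.9, 38.3 and 57.1 CPM in Vkine. Every Vkine sample was above every EV sample. Saa3 rose, with a log2 fold change of 2.08 ± 0.26. It lies on GRCm38 chromosome 7 from 46711998 to 46715700. The liver-type genes Saa1 and Saa2 had 3 and 4 counts over all 6 libraries, so they were not tested.

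Serpinb2 encodes plasminogen activator inhibitor 2, a serpin that macrophages produce on inflammatory stimulation. It had 27.5, 21.7 and 27.7 CPM in EV and 65.9, 79.7 and 56.96 CPM in Vkine. The groups did not overlap, and Serpinb2 rose with a log2 fold change of 1.4 ± 0.18. Its interval, chromosome 1 from 107511423 to 107535478, overlaps that annotated for Serpinb10, and reads from the shared stretch could have been split between the genes. Serpinb10 itself had 11.3, 4.13 and 11.9 CPM in EV and 10.13, 10.6 and 15.9 CPM in Vkine, with overlapping groups (log2 fold change 0.43 ± 0.38, adjusted p = 0.69 by edgeR). Of 8 clade B serpins tested, Serpinb2 was the one called by edgeR. The next by p was Serpinb6a, an intracellular serpin, which pointed the other way at -0.65 ± 0.17 (adjusted p = 0.27 by edgeR and 0.048 by DESeq2), with 202, 287 and 242 CPM in EV and 153, 173 and 139.8 CPM in Vkine.

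H2-Q7 encodes a Qa-2 antigen, a class Ib MHC molecule that presents peptides to a restricted set of T cells and is recognised by cytotoxic lymphocytes. It had 34.7, 29.6 and 34.6 CPM in EV and 71.6, 68.3 and 83.6 CPM in Vkine. The lowest Vkine sample was above the highest EV sample, and H2-Q7 rose with a log2 fold change of 1.18 ± 0.15. The gene lies on chromosome 17 from 35439155 to 35443773, beside near-identical copies. A neighbouring copy, H2-Q6, had 69.2, 68.6 and 78.6 CPM in EV and 198, 101 and 134 CPM in Vkine. H2-Q6 also did not overlap between the groups, but its log2 fold change of 0.999 ± 0.22 did not pass by edgeR (adjusted p = 0.24) and passed by DESeq2 (0.0048). H2-Q8 and H2-Q9 were also looked for, and the table held no gene under these names. The division of reads between H2-Q7 and its copies, H2-Q6 among them, is uncertain.

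Cspg4 encodes NG2, a transmembrane chondroitin sulfate proteoglycan best known from pericytes and oligodendrocyte precursors and also reported on some macrophages. It had 60.2, 81.5 and 59.4 CPM in EV and 14.8, 22.9 and 15.6 CPM in Vkine. Each Vkine sample was well below each EV sample. Cspg4 fell, with a log2 fold change of -1.92 ± 0.21. It lies on chromosome 9 from 56865033 to 56899870. Pericytes were looked for by 12 other marker genes, of which 11 had a positive fold change (median 0.63, and 0.10 to 1.54 when 1 sample was left out). Rgs5, a pericyte marker, had 18.99, 6.72 and 8.02 CPM in EV and 16.9, 10.6 and 36.5 CPM in Vkine, with overlapping groups. The exception was Anpep, an aminopeptidase also carried by myeloid cells, with 184, 181 and 207 CPM in EV and 69.8, 141 and 92.01 CPM in Vkine (log2 fold change -0.92 ± 0.23, adjusted p = 0.26 by edgeR and 0.017 by DESeq2).

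**Figure D1:**
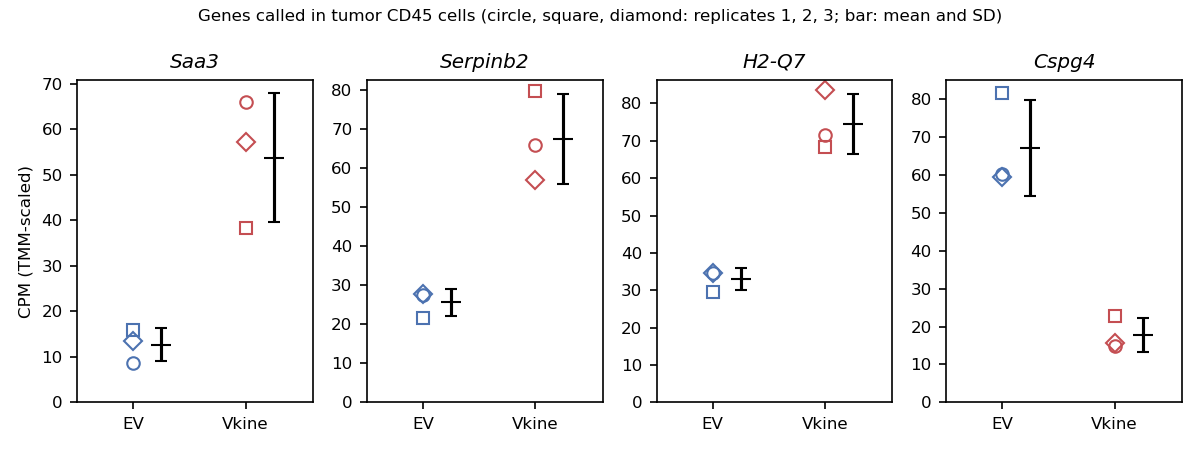
CPM of the 4 called genes in each of the 6 samples, with EV in blue and Vkine in red, and the mean with its SD (n = 3) as a bar beside each group. The axes start at 0, and in no panel do the groups overlap.

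The promoters of these 4 genes are printed to show which of 5 short inflammatory and cell cycle motifs stand upstream of each. Each run holds 250 bases before to 50 bases after the RefSeq start, read 5′ to 3′ on the gene's strand (RefSeq table on GRCm38.p6). The motifs were the ISRE core GAAANNGAA, the NF-kB core GGGANNTTC, the AP-1 site TGANTCA, the C/EBP site TTGCNNAA and the E2F core TTCCCGC, searched on both strands. Capitals mark every match, and no matches overlapped.
Saa3, chr7:46715627-46715926, minus strand: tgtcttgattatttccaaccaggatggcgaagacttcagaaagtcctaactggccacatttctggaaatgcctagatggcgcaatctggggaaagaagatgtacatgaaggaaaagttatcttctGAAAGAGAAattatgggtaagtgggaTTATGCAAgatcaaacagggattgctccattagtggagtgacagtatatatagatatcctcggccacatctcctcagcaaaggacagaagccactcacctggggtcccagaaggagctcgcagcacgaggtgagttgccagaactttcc
Serpinb2, chr1:107511173-107511472, plus strand: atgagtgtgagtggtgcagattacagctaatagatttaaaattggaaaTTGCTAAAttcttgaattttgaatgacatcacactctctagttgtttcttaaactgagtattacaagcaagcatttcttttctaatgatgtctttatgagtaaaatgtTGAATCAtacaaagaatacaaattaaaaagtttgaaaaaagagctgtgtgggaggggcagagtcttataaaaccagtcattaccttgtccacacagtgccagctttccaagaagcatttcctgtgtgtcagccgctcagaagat
H2-Q7, chr17:35438905-35439204, plus strand: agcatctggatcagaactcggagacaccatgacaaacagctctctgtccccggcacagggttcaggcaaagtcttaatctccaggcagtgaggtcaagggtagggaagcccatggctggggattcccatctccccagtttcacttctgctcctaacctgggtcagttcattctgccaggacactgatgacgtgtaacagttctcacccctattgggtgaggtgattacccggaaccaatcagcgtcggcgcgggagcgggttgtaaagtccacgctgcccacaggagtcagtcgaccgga
Cspg4, chr9:56864854-56865153, plus strand: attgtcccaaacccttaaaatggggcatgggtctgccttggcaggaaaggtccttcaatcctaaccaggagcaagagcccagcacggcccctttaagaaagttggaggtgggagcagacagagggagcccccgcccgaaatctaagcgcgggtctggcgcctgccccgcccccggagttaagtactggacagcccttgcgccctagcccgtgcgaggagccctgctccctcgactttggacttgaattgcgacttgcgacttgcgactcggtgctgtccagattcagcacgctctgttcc

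The Saa3 run holds an ISRE core that starts 125 bases before the start site and a C/EBP match on the other strand that starts 99 bases before it. The Serpinb2 run holds a C/EBP match at 202 bases and an AP-1 match at 94 bases before the start. The RefSeq table holds a second start for Serpinb2, in whose window the AP-1 match lies at 181 bases and a C/EBP match on the other strand at 19 bases before the start, so the positions depend on the start chosen. The runs of H2-Q7 and Cspg4 hold none of the 5 motifs in these letters. Over all 32851 promoters in the table, the ISRE core occurs in 8.56%, C/EBP in 10.8%, AP-1 in 7.81%, the E2F core in 4.60% and the NF-kB core in 3.94%. A match is a stretch of letters and no evidence of binding. Other spellings of these sites were not searched, so a run without a match may still hold one.

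For comparison with a dendritic cell line under the same 2 arms, the called genes were looked up in MutuDC without LPS (2 EV and 3 Vkine samples). H2-Q7 had 14.7 and 13.3 CPM in EV MutuDC and 39.6, 33.1 and 33.6 CPM in Vkine MutuDC. It rose there too, with a log2 fold change of 1.34 (adjusted p = 4.4e-07 by edgeR over 13357 genes). The difference between its effect in tumor CD45 cells and in MutuDC was -0.18, with a 95% confidence interval from -0.63 to 0.27, and it did not pass the test of the interaction (limma-voom, adjusted p = 0.72 over 16113 genes). Cspg4 had no count in any of these 5 MutuDC libraries. Serpinb2 had 2 counts in 1 of them and 0 in the others, and neither gene was tested there. Saa3 had 0 and 4 counts in EV MutuDC and 4, 6 and 1 in Vkine MutuDC, too few to read a difference from (interaction 0.80, adjusted p = 0.74 by limma-voom).

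Beyond the called genes, 1683 of the 14006 genes had an unadjusted p under 0.05 by edgeR, 983 of them higher and 700 lower in Vkine. Over all genes the fold changes had a median of -0.002, and 49.7% were above 0. TMM scaling centres most genes near 0, so this balance says nothing about Vkine. In 9.21% of genes every Vkine sample was above every EV sample, and in 9.42% every Vkine sample was below. The counts of list members without overlap given below are to be read against these shares. Some genes stand in several lists, so the lists are not separate results. The plot of fold change against mean level shows that genes with larger fold changes than the called ones lie mostly at low counts.

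**Figure D2:**
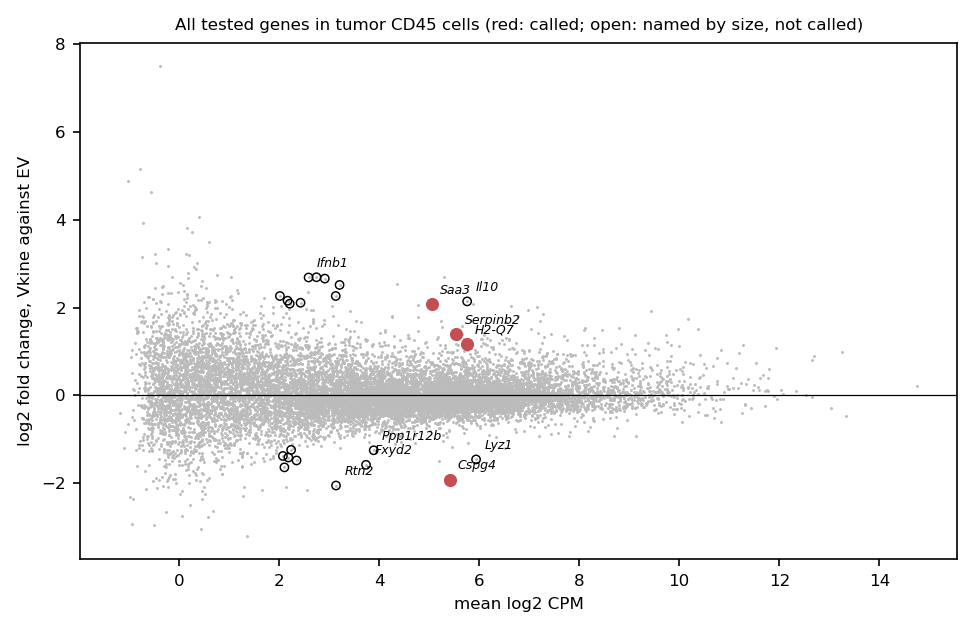
Log2 fold change of Vkine against EV (y) against mean log2 CPM (x) for the 14006 genes tested, each grey dot being 1 gene. The 4 called genes are red, and open circles are the other genes named for the size of their difference, some of them labelled.

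DESeq2, run on the same counts, called 174 genes higher and 39 lower, which is 1.37% and 0.306% of the 12740 genes that it gave an adjusted p. All 4 edgeR calls were among these 213 genes. No gene named below other than these 4 was called by edgeR with all 6 samples. DESeq2 calls among them are given beside their values.

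The tumor CD45 libraries held 13814620 to 18125269 counts. The label was checked against its defining gene. Ptprc had 777, 585 and 761 CPM in EV and 685, 799 and 930.2 CPM in Vkine, and the 15 pan-leukocyte genes had mean log2 CPM of 8.90 to 8.99 in EV and 8.82 to 9.06 in Vkine. Xist was expressed at 256 to 410 CPM in EV and 259 to 372 CPM in Vkine, and Ddx3y, Eif2s3y, Kdm5d and Uty had no count in any library, so all 6 read as female. Markers of other cells were present at lower summed levels. The 20 fibroblast genes summed to 2189 to 3598 CPM in EV and 2064 to 3216 CPM in Vkine, the 16 endothelial genes to 139.8 to 399 CPM in EV and 222 to 485 CPM in Vkine and the 16 epithelial genes to 54.3 to 72.2 CPM in EV and 46.2 to 65.4 CPM in Vkine. Of these, Cldn3, Esrp1 and Nkx2-1 had no count in any library, nor did the smooth muscle gene Cnn1 of the pericyte list. Endothelial totals were lowest in EV replicates 2 and 3. Fn1, a fibronectin gene that monocytes express too, made up most of the fibroblast sum, with 3161, 3140.3 and 2021 CPM in EV and 1604, 2917 and 1749 CPM in Vkine. By fold change, 17 of 19 fibroblast genes tested and all 16 endothelial genes were positive, as were most members of the lists described below as higher. The fibroblast median was 0.68 (1.33 without EV replicate 1), and the endothelial median was 0.61 (0.20 to 1.49 when 1 sample was left out). Of these genes 1 of 19 and none of 16 were without overlap. Fibroblast, endothelial and pericyte list means overlapped between the groups, and their part in the results was not tested.

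2 libraries stood apart. EV replicate 2 was the lowest of the 6 samples in 21.8% of genes and the highest in 19.2%, and it lay at one end of the first principal component. Vkine replicate 1 was the lowest in 21.7% and the highest in 21.6%, and it lay at one end of the second component. Mitochondrial genes took 10.6% of its counts, against 4.32% to 5.56% in EV, 2.47% in Vkine replicate 2 and 2.75% in Vkine replicate 3. Haemoglobin genes were also high there, with 4.09, 10.8 and 16.4 CPM in EV and 191, 7.13 and 6.48 CPM in Vkine for Hbb-bs. Where leaving out 1 of the 6 samples shifted a list median below by over 1.5 times, the value without it is given, and how far RNA quality or blood entered the results was not tested.

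Of the protein-coding genes at a mean log2 CPM of 2 or more that did not overlap between groups, the 10 that follow had the largest positive fold changes, with predicted genes and receptor segments left out. None of them passed the edgeR test. Ifnb1, the gene of interferon beta, had 2.44, 0.735 and 1.61 CPM in EV and 14.3, 5.80 and 10.9 CPM in Vkine. Its lowest Vkine sample was more than its highest EV sample, and its log2 fold change was 2.69 ± 0.49 (adjusted p = 0.18 by edgeR, 6.4e-05 by DESeq2). Il10, the gene of an inhibitory cytokine, had 21.4, 14.1 and 24.5 CPM in EV and 32.5, 144 and 88.4 CPM in Vkine. Vkine replicates 2 and 3 set that difference, and replicate 1 lay just above the EV samples. Cxcl5, a neutrophil chemokine, had 2.05, 3.22 and 3.73 CPM in EV and 29.6, 6.44 and 7.47 CPM in Vkine, and there replicate 1 was the highest. Ngp, a granule protein of maturing neutrophils, had 1.31, 1.36 and 2.17 CPM in EV and 5.69, 7.48 and 8.45 CPM in Vkine, and its Vkine values lay close together. Stfa1 and BC100530, stefin A genes of a cluster of near-identical copies on chromosome 16, had log2 fold changes of 2.69 ± 0.64 and 2.26 ± 0.61, and reads could be split among those copies. The others were Gipr, the receptor of an incretin (2.66 ± 0.77), Slc32a1, a vesicular transporter of inhibitory amino acids (2.52 ± 0.53), Acpp, an acid phosphatase (2.11 ± 0.43), and Crabp1, a retinoic acid binding protein (2.09 ± 0.49). Gipr had 1.48, 1.30 and 3.34 CPM in EV and 28.1, 4.23 and 6.66 CPM in Vkine, so Vkine replicate 1 set most of its difference. DESeq2 called all 10 genes, against 1.37% of all genes that it gave an adjusted p. The 10 were picked for size and lack of overlap in these same counts, so these calls are no separate support.

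On the lower side, the 10 genes chosen by the same rule were Cspg4 and 9 genes that did not pass the edgeR test. Lyz1, the gene of a lysozyme with a close paralog in Lyz2, had 106, 73.4 and 90.4 CPM in EV and 31.5, 49.9 and 16.6 CPM in Vkine. All Vkine samples were below the lowest EV sample (log2 fold change -1.46 ± 0.36, adjusted p = 0.27 by edgeR and 0.0014 by DESeq2). Fxyd2, a regulator of the sodium pump, had 18.5, 21.5 and 19.5 CPM in EV and 7.02, 8.35 and 4.505 CPM in Vkine, with tight groups. Chst3, a sulfotransferase that modifies chondroitin chains of the kind that versican and NG2 carry, had 7.504, 7.29 and 7.18 CPM in EV and 2.14, 3.77 and 1.91 CPM in Vkine (adjusted p = 0.26 by edgeR, 0.041 by DESeq2). Ppp1r12b, a subunit of myosin phosphatase, had 16.2, 21.8 and 24.3 CPM in EV and 7.25, 9.40 and 9.50 CPM in Vkine. Rtn2, a reticulon, had a log2 fold change of -2.05 ± 0.45, and Fgf2, a fibroblast growth factor, of -1.64 ± 0.48. Prelid3a, Glmn and Nudt7, the last a peroxisomal hydrolase of coenzyme A, completed the 10, at -1.41 ± 0.43, -1.38 ± 0.54 and -1.24 ± 0.42, and their Vkine levels were at most 3.92 CPM. DESeq2 also called Fxyd2, Ppp1r12b and Rtn2 (adjusted p = 0.00029, 0.0042 and 0.0019), where it called 0.306% of all genes lower. As on the higher side, the genes were picked from these same counts.

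Interferon response genes lay higher in Vkine as a group, although no member was called by edgeR. Type I interferons bind a receptor on most cells and induce a shared set of antiviral genes through ISRE elements. Of 32 type I response genes tested, 31 had a positive fold change (median 0.75), and 24 of them had every Vkine sample above every EV sample, where 9.21% of all genes did. The mean log2 CPM of the list was 5.27, 4.64 and 5.57 in EV and 6.01, 5.91 and 5.94 in Vkine. EV replicate 2 was lowest, and without it the median was 0.48. DESeq2 called 8 of the 32 higher and none lower.

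Irf7, the transcription factor that amplifies type I interferon production, had 109.7, 90.8 and 137 CPM in EV and 233, 208 and 193 CPM in Vkine. Its groups did not overlap (log2 fold change 0.91 ± 0.18, adjusted p = 0.2 by edgeR and 0.0014 by DESeq2). Herc6, an ISG15 ligase in mice, had 17.2, 10.7 and 13.7 CPM in EV and 31.6, 26.1 and 24.7 CPM in Vkine. Oasl1, a 2′-5′-oligoadenylate synthetase-like protein, had 43.1, 22.4 and 57.4 CPM in EV and 77.8, 103 and 99.2 CPM in Vkine, and its EV samples were spread more widely than its Vkine samples. Zbp1, a sensor of Z-form nucleic acid, had 44.97, 37.01 and 59.4 CPM in EV and 78.1, 76.3 and 75.7 CPM in Vkine. In each of these 4 genes the lowest Vkine sample exceeded the highest EV sample, and DESeq2 also called Herc6 and Oasl1 (adjusted p = 0.02 and 0.005) but not Zbp1.

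Interferon gamma response genes lay on the same side. All 24 tested were positive (median 0.58), and 16 did not overlap, which is 66.7% against 9.21% of all genes. Nos2, inducible nitric oxide synthase, had 61.2, 23.2 and 70.7 CPM in EV and 215, 136 and 249.5 CPM in Vkine. Its Vkine values were all beyond the EV range (log2 fold change 1.95 ± 0.43, adjusted p = 0.26 by edgeR and 0.019 by DESeq2). Gbp4, a guanylate-binding GTPase, had 11.03, 7.23 and 8.57 CPM in EV and 24.7, 15.3 and 20.9 CPM in Vkine (adjusted p = 0.011 by DESeq2). Among 7 interferon and receptor genes tested, Ifnb1 was the single one without overlap. Ifng had counts in 5 of the 6 libraries, with 0.625, 0 and 0.668 CPM in EV and 3.47, 0.348 and 0.309 CPM in Vkine, and only Vkine replicate 1 stood out. Sensors and adaptors of nucleic acid recognition had a median of 0.29 (0.17 without Vkine replicate 2), with 7 of 19 above, among them Ifih1, the RNA sensor MDA5, with 38.7, 24.1 and 41.02 CPM in EV and 51.5, 62.9 and 59.1 CPM in Vkine.

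RefSeq promoters were matched for 24 of the 32 type I genes, and 14 of these genes have an ISRE core in the 300 bases. They were matched for 17 of the 26 listed interferon gamma genes, 13 of which have one. The share over all promoters was 8.56%. These lists are of known targets, so the motif shares describe the lists and not their response here. The Irf7 run is printed because Irf7 has the smallest p of its list. It holds none of the 5 motifs in these letters, and other spellings were not searched.
Irf7, chr7:141266375-141266674, minus strand: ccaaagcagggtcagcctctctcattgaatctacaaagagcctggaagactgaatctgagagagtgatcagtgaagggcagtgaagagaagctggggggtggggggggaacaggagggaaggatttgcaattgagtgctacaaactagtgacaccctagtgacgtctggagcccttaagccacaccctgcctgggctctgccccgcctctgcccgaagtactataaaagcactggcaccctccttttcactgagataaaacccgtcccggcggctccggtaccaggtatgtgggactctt

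Chemokines that recruit neutrophils through CXCR2 lay higher in Vkine. All 9 neutrophil-recruiting genes tested were positive (median 1.51), and 8 of the 9 did not overlap between groups. Cxcl3 had 531, 304 and 725 CPM in EV and 1604, 1210.3 and 1638 CPM in Vkine. Every Vkine sample was above the EV range (log2 fold change 1.51 ± 0.29, adjusted p = 0.2 by edgeR and 5.1e-06 by DESeq2). Cxcl2, an abundant transcript in all 6 samples, had 7057, 3804 and 8644 CPM in EV and 9633, 13275 and 16074 CPM in Vkine (adjusted p = 0.015 by DESeq2). Ppbp, a chemokine stored in platelets, had 67.99, 40.9 and 93.3 CPM in EV and 389, 176 and 166 CPM in Vkine (adjusted p = 0.038 by DESeq2), and the 8 platelet genes tested had a median of 0.10 (0.45 if EV replicate 2 is left out and -0.20 if Vkine replicate 1 is) with 1 of 8 above, which was Ppbp. Promoters were matched for 8 of the 10 listed chemokine genes, and 4 of these hold an NF-kB core, against 3.94% of all promoters. Among the 24 NF-kB feedback targets described below, 21 were matched and 2 of these hold that core. As for the interferon lists, these shares describe the lists and not their response here.

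Of 11 monocyte-recruiting chemokine and receptor genes, 4 were positive (median -0.09, and -0.17 to -0.03 when 1 sample was left out), with 1 above and 2 below without overlap. Cx3cr1, the fractalkine receptor of monocytes and macrophages, had 305, 301 and 257 CPM in EV and 206, 165 and 110.2 CPM in Vkine, with each Vkine sample below each EV sample (log2 fold change -0.84 ± 0.22, adjusted p = 0.27 by edgeR and 0.019 by DESeq2). Ccl5, which attracts T cells and is also made by mature dendritic cells, had 12.6, 5.82 and 8.85 CPM in EV and 23.9, 27.9 and 25.2 CPM in Vkine. The Vkine samples lay close together above EV (log2 fold change 1.5 ± 0.27, adjusted p = 0.18 by edgeR and 0.00053 by DESeq2). Ccr7, the receptor that guides dendritic cells to lymph nodes, had 26.2, 9.32 and 17.5 CPM in EV and 26.8, 73.7 and 72.1 CPM in Vkine, where Vkine replicate 1 was barely above the highest EV sample (adjusted p = 0.0016 by DESeq2).

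Of 21 inflammatory cytokine genes, 20 were positive (median 0.999, 0.63 without EV replicate 2) and 7 did not overlap. The 24 NF-kB feedback targets, the inhibitors that NF-kB induces against itself, differed by replicate. Their mean log2 CPM was 7.93, 7.15 and 7.89 in EV and 7.57, 8.52 and 8.44 in Vkine. Vkine replicate 1 lay within the EV range while replicates 2 and 3 lay above it. The list median of 0.55 became 0.85 when Vkine replicate 1 was dropped and 0.36 when EV replicate 2 was, and members without overlap were 2 of 24 with all samples and 21 of 24 without Vkine replicate 1, against 9.21% and 19.4% of all genes. Nfkbia, the gene of IkB alpha, had 2651, 1251 and 2757 CPM in EV and 3143, 3714 and 4245 CPM in Vkine. Unlike in the list mean, Vkine replicate 1 was above every EV sample in this gene.

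**Figure D3:**
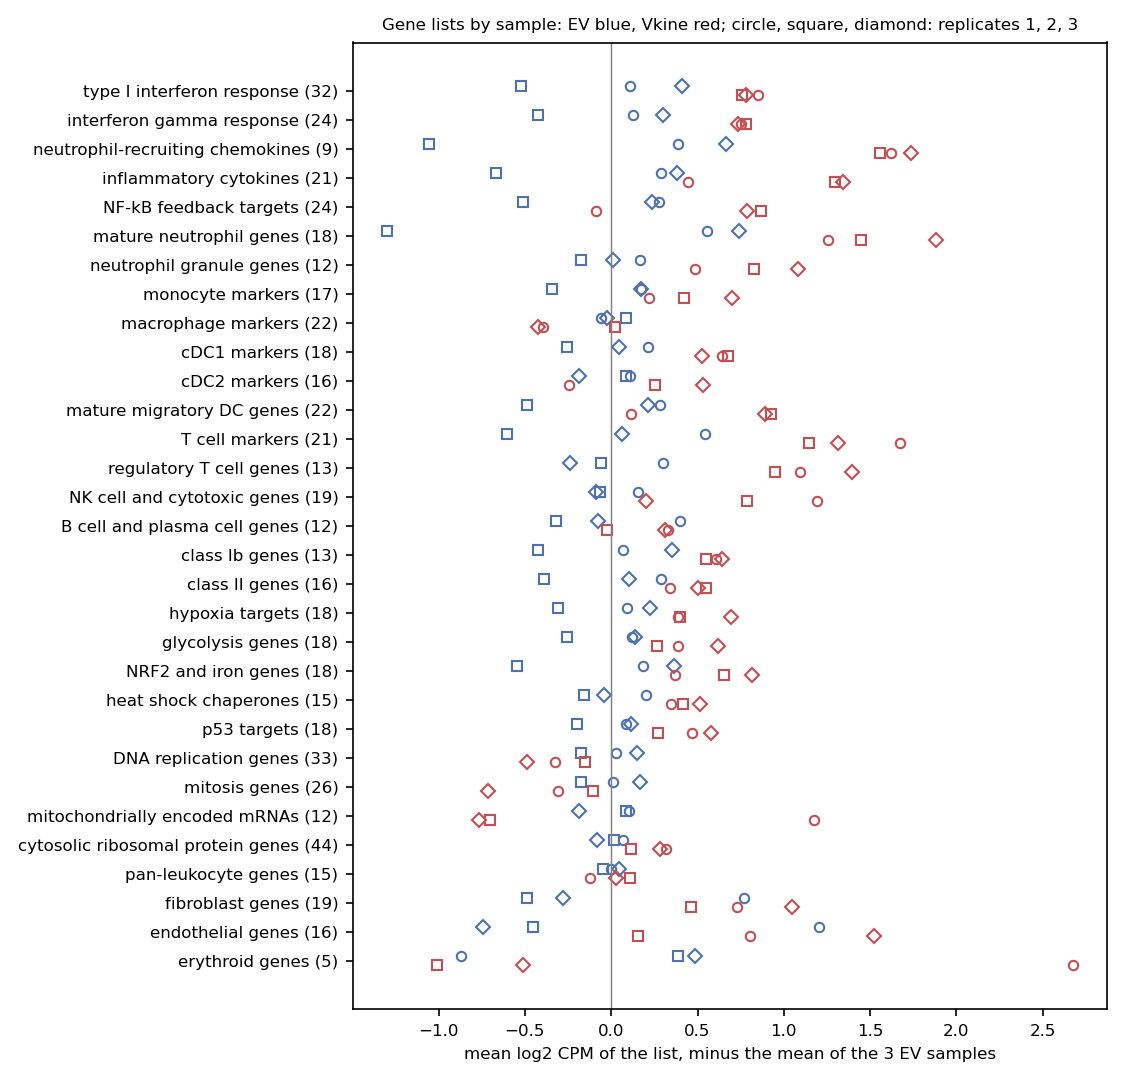
Mean log2 CPM of each gene list in each sample (x), as the difference from the mean of the 3 EV samples, with the number of genes tested in parentheses. EV is blue and Vkine red, with circles, squares and diamonds for replicates 1, 2 and 3. In the interferon and neutrophil chemokine rows all Vkine samples lie to the right of EV, and in the macrophage and DNA replication rows the groups overlap.

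Neutrophil genes lay higher in Vkine. Of 18 genes of mature neutrophils, 17 were positive (median 1.28) and 13 did not overlap. Without EV replicate 2 the median was 0.81. The list summed to 967 to 4199 CPM in EV and 6398 to 9787 CPM in Vkine. Ly6g, the antigen by which mouse neutrophils are sorted, had 3.07, 0.283 and 1.39 CPM in EV and 8.21, 6.03 and 5.37 CPM in Vkine. Retnlg, a resistin-like protein of neutrophils, had 85.7, 34.2 and 91.4 CPM in EV and 286, 123.3 and 273 CPM in Vkine. Both were above EV in every Vkine sample and neither was called by edgeR (adjusted p = 0.3 and 0.29) or DESeq2 (0.051 and 0.081).

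Granule genes were split. Of 12 tested, 8 were positive and 4 negative, the lowest log2 fold change being -0.60. Without overlap 6 were above and 2 below (median 0.72, 0.42 without Vkine replicate 3). Mmp8, the neutrophil collagenase, had 29.6, 8.82 and 29.6 CPM in EV and 121, 68.3 and 98.2 CPM in Vkine, and Lcn2, an iron-chelating lipocalin, had 47.4, 15.1 and 54.8 CPM in EV and 155, 120.1 and 203 CPM in Vkine. Ltf, lactoferrin of secondary granules, had 3.07, 1.07 and 1.73 CPM in EV and 4.95, 6.84 and 6.29 CPM in Vkine. These 3 were higher in every Vkine sample, and DESeq2 called Mmp8 and Lcn2 but not Ltf (adjusted p = 0.055).

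Macrophage markers tended to the lower side and monocyte markers to the higher. Of 22 macrophage markers, 5 were positive (median -0.24), with 5 below and 2 above without overlap. Vkine replicate 2 had a list mean inside the EV range, and leaving it out gave a median of -0.52. Trem2, a lipid receptor of tissue macrophages, had 302, 449 and 349.8 CPM in EV and 283, 261 and 227 CPM in Vkine. C1qa, a complement subunit made by macrophages, had 1662, 2606 and 2399 CPM in EV and 1557, 1726 and 1083 CPM in Vkine, and its highest Vkine sample overlapped the lowest EV sample. Fcgr1, the high-affinity IgG receptor, pointed the other way, with 214, 218 and 223 CPM in EV and 273, 297 and 280.0 CPM in Vkine.

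Of 17 monocyte markers, 11 were positive (median 0.47), 6 above and 1 below without overlap. Dropping EV replicate 2 gave a median of 0.30, dropping Vkine replicate 1 gave 0.78, and dropping Vkine replicate 3 gave 0.15. Ms4a4c, an MS4A-family membrane protein, had 89.9, 64.1 and 98.2 CPM in EV and 170.4, 172 and 170.1 CPM in Vkine. Ly6c2, the marker of the inflammatory subset, had 51.8, 39.6 and 56.4 CPM in EV and 92.3, 90.8 and 85.3 CPM in Vkine. In both the Vkine samples lay within a narrow range above EV (log2 fold changes 1.02 ± 0.17 and 0.86 ± 0.16, adjusted p = 0.18 and 0.18 by edgeR, 0.00016 and 0.0035 by DESeq2). The marker below was Itgam, an integrin subunit, with 1121, 1245 and 1270.5 CPM in EV and 1009, 953 and 921 CPM in Vkine. Outside the monocyte list, Fcgr4, an activating IgG receptor of monocytes and neutrophils, had 48.6, 32.7 and 66.96 CPM in EV and 90.8, 105 and 122 CPM in Vkine (adjusted p = 0.0029 by DESeq2). It had the highest fold change of 9 Fc receptor genes tested, of which 2 were above and 1 below without overlap. Their median was 0.23, and -0.08 to 0.18 when 1 sample was left out.

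T cell genes lay at low levels and higher in Vkine. All 21 markers tested were positive (median 1.19), and 12 did not overlap. Summed, they came to 58.5 to 96.6 CPM in EV and 137 to 164 CPM in Vkine. Counts over the segments and constant regions of the T cell receptor were 233, 151 and 151 in EV and 550, 298 and 348 in Vkine, and these genes are shared with the marker list in the constant regions alone. Cd3e, a chain of the receptor complex, had 0.455, 0.509 and 1.06 CPM in EV and 2.96, 3.25 and 3.58 CPM in Vkine. Each Vkine sample was above each EV sample (log2 fold change 2.26 ± 0.57, adjusted p = 0.26 by edgeR and 0.034 by DESeq2). At its EV levels alone Cd3e would not have passed the count filter. Trac, the alpha constant region, had 3.18, 1.13 and 1.28 CPM in EV and 7.32, 5.34 and 6.60 CPM in Vkine (adjusted p = 0.034 by DESeq2).

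Genes of regulatory and activated T cells were higher as well. Of 13 tested, 12 were positive (median 1.25) and 8 did not overlap. Icos, a costimulatory receptor, had 4.09, 3.28 and 3.51 CPM in EV and 10.9, 10.3 and 11.1 CPM in Vkine, and Ctla4, an inhibitory receptor, had 8.47, 8.70 and 6.46 CPM in EV and 19.96, 15.5 and 20.7 CPM in Vkine. Their groups were tight and did not overlap (log2 fold changes 1.57 ± 0.27 and 1.25 ± 0.23, adjusted p = 0.18 for both by edgeR, 0.0016 and 0.0037 by DESeq2). Outside this list, Gata3, a transcription factor of type 2 lymphocytes, had 0.227, 0.113 and 0.111 CPM in EV and 2.81, 1.16 and 2.28 CPM in Vkine. DESeq2 called it while edgeR did not (adjusted p = 0.0091 and 0.24), on 103 counts over the 6 libraries. At its EV levels alone Gata3 would not have passed the count filter, so its call is no support for a difference. The innate lymphoid list that holds Gata3 had a median of 0.55, with 3 of 12 genes above. Foxp3, which defines regulatory T cells, had 1.71, 0.678 and 0.557 CPM in EV and 3.99, 3.19 and 3.89 CPM in Vkine.

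Cytotoxic genes were positive in 17 of 19, but 5 did not overlap (median 0.63, 0.33 without Vkine replicate 1). Il2rb, the shared beta chain of the IL-2 and IL-15 receptors, had 7.22, 7.06 and 4.56 CPM in EV and 19.1, 13.98 and 10.98 CPM in Vkine. Gzmb, granzyme B, had 5.40, 7.18 and 4.29 CPM in EV and 12.6, 9.28 and 8.45 CPM in Vkine. Vkine replicate 1 was the highest sample of both genes, and DESeq2 called Il2rb (adjusted p = 0.029). B cell and plasma cell genes had a median of 0.29 (0.51 when EV replicate 1 was dropped, 0.19 when replicate 2 was) with none of 12 above, and counts over immunoglobulin genes were 247, 119 and 231 in EV and 240, 257 and 311 in Vkine, which overlap.

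Dendritic cell genes were described by subset. Of 18 markers of cDC1, the cross-presenting subset, 16 were positive (median 0.58) and 9 did not overlap. Xcr1, the chemokine receptor that defines the subset, had 1.99, 2.54 and 3.34 CPM in EV and 5.47, 7.31 and 4.69 CPM in Vkine, and Flt3, the receptor for the growth factor of dendritic cells, had 9.49, 10.2 and 7.35 CPM in EV and 16.9, 16.5 and 18.6 CPM in Vkine. Both were higher in every Vkine sample (adjusted p = 0.31 and 0.25 by edgeR, 0.19 and 0.043 by DESeq2). Of 16 cDC2 markers 12 were positive (median 0.28, and 0.03 to 0.58 when 1 sample was left out), none was above and 3 were below without overlap. Leaving out Vkine replicate 1 gave the highest of these medians, with 6 above and 3 below. Clec12a, an inhibitory lectin and 1 of those below, had 93.6, 122 and 105 CPM in EV and 64.5, 62.6 and 39.4 CPM in Vkine (adjusted p = 0.0071 by DESeq2). The cDC2 list mean overlapped between the groups. The 22 mature migratory genes had a median of 0.63, and 0.31 without EV replicate 2, with Vkine replicate 1 inside the EV range of the list mean. Of these genes 5 of 22 were above without overlap with all samples, and 6 of 22 without EV replicate 2.

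Antigen presentation genes were described by class. Of 13 class Ib genes tested, 12 were positive (median 0.48) and 5 did not overlap. Promoters were matched for 14 of the 22 listed, and 2 of these hold an ISRE core, against 8.56% of all promoters. H2-T23, which encodes Qa-1, had 163, 172 and 199.7 CPM in EV and 226, 231 and 289 CPM in Vkine, and H2-T22 had 55.9, 57.5 and 71.7 CPM in EV and 76.1, 83.5 and 77.4 CPM in Vkine. H2-Q4 had 179, 171 and 255 CPM in EV and 382, 201 and 277 CPM in Vkine, where the groups overlapped, and H2-Q5 had 16.8, 14.2 and 20.98 CPM in EV and 19.96, 33.2 and 36.7 CPM in Vkine, where Vkine replicate 1 lay within EV. Of the classical class I genes, H2-K1 had 1323, 1439 and 1497 CPM in EV and 1624, 1623 and 1701 CPM in Vkine, with a log2 fold change of 0.22 ± 0.16. H2-D1 overlapped between the groups, at 0.14 ± 0.19 (adjusted p = 0.61 and 0.81 by edgeR).

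Of the 17 class I classical and processing genes 6 did not overlap (median 0.20, 0.13 without EV replicate 2). Psmb8, an immunoproteasome subunit, had 70.6, 65.4 and 74.8 CPM in EV and 118, 96.6 and 92.3 CPM in Vkine, and Tap1, a peptide transporter, had 103, 102 and 126 CPM in EV and 186, 143 and 151 CPM in Vkine. Nlrc5, the transactivator of class I genes, had 45.6, 34.7 and 47.4 CPM in EV and 74.97, 61.2 and 59.00 CPM in Vkine. All 3 were higher in each Vkine sample, and none was called by either tool. Class II genes had a median of 0.56 and 0.35 without EV replicate 2, with H2-Eb1 at 449.6, 246 and 408 CPM in EV and 570.0, 714 and 645 CPM in Vkine (adjusted p = 0.27 by edgeR, 0.022 by DESeq2).

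Matrix genes showed no shared direction. Vcan, the versican gene itself, had 208, 126 and 171 CPM in EV and 121, 268 and 312 CPM in Vkine, with overlapping groups (log2 fold change 0.47 ± 0.34, adjusted p = 0.61 by edgeR). Gene counts cannot separate transcripts of a delivered fragment from those of the whole gene. Of 12 versican, NG2 and hyaluronan genes tested, Cspg4 was called lower and none was above without overlap. Hyal2, a hyaluronidase, had 20.1, 27.5 and 18.3 CPM in EV and 16.04, 15.95 and 14.01 CPM in Vkine. Among 15 matrix proteases and their inhibitors 2 were above and 3 below, or 13.3% and 20.0%, against 9.21% and 9.42% of all genes. The 2 above were Mmp8 and Mmp9, which also stand in the neutrophil granule list. Mmp9, gelatinase B, had 104, 129 and 155 CPM in EV and 170.4, 207 and 365 CPM in Vkine (adjusted p = 0.028 by DESeq2), and Timp1, a metalloproteinase inhibitor, had 21.4, 37.5 and 21.5 CPM in EV and 15.7, 14.7 and 18.9 CPM in Vkine. Vcam1, an adhesion receptor for leukocyte integrins, had 22.1, 23.4 and 23.4 CPM in EV and 36.7, 55.05 and 62.02 CPM in Vkine, and its EV samples were nearly equal (log2 fold change 1.16 ± 0.2, adjusted p = 0.18 by edgeR and 0.00083 by DESeq2).

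Hypoxia and glycolysis genes lay higher in Vkine. HIF factors induce both groups when oxygen is low. Of 18 hypoxia targets 16 were positive (median 0.60) and 10 did not overlap, and of 18 glycolysis genes 17 were positive (median 0.32) and 7 did not. Ero1l, an oxidase of the endoplasmic reticulum, had 349, 160.3 and 311 CPM in EV and 562, 454 and 731 CPM in Vkine, and Ndrg1, a stress response gene, had 158, 145 and 161 CPM in EV and 200.1, 290.5 and 292 CPM in Vkine. Pfkp, a phosphofructokinase, had 246, 181 and 278 CPM in EV and 360.2, 332 and 455 CPM in Vkine. In each the lowest Vkine sample was above the EV range, and DESeq2 called all 3 (adjusted p = 0.0052, 0.011 and 0.037) while edgeR called none.

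Stress genes followed the same side to different degrees. All 18 NRF2 and iron genes were positive (median 0.47, 0.27 without EV replicate 2) and 6 did not overlap, with Osgin1, an oxidative stress inhibitor of growth, at 19.8, 12.5 and 29.6 CPM in EV and 52.1, 38.3 and 64.1 CPM in Vkine. Of 18 p53 targets 8 did not overlap (median 0.54, 0.36 without Vkine replicate 3), with Gadd45a, a growth arrest gene, at 96.2, 76.6 and 178 CPM in EV and 374, 210.0 and 306 CPM in Vkine. Of 15 heat shock genes 5 did not (median 0.24, 0.13 without EV replicate 2), with Dnajb1, a co-chaperone of Hsp70, at 70.4, 61.5 and 78.3 CPM in EV and 108, 116 and 139.9 CPM in Vkine. DESeq2 called Osgin1, Gadd45a and Dnajb1 (adjusted p = 0.003, 0.0009 and 0.0064). Such genes also respond to cell handling, and whether handling differed between the arms was not tested. The 12 mitochondrially encoded mRNAs had a median of 0.23, which was -0.75 without Vkine replicate 1 and 0.56 without Vkine replicate 2.

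Proliferation genes lay lower in Vkine. Of 33 DNA replication genes, 27 had a negative fold change (median -0.38), and 10 had every Vkine sample below every EV sample, where 9.42% of all genes did. All 26 mitosis genes were negative (median -0.35, -0.19 without Vkine replicate 3), and 2 of them did not overlap, or 7.69%, which is no more than that share. The list means overlapped between the groups in both. Mcm6, a subunit of the replicative helicase, had 82.1, 67.8 and 78.5 CPM in EV and 38.4, 55.9 and 48.4 CPM in Vkine. All Vkine samples were below EV (log2 fold change -0.68 ± 0.17, adjusted p = 0.26 by edgeR and 0.064 by DESeq2). Mcm3, of the same complex, had 79.99, 58.8 and 78.1 CPM in EV and 49.2, 52.96 and 43.9 CPM in Vkine, and Anln, a cytokinesis protein, had 21.2, 23.96 and 25.05 CPM in EV and 12.3, 15.02 and 15.6 CPM in Vkine. Neither edgeR nor DESeq2 called a gene of these lists.

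Promoters were matched for 25 of the 33 DNA replication genes, and 12 of these hold the E2F core, against 4.60% of all promoters. This share too describes the list and not its response here. The Mcm6 run, shown as the gene with the smallest p in its list, holds none of the 5 motifs in these letters. Other spellings, those of E2F sites included, were not searched.
Mcm6, chr1:128359656-128359955, minus strand: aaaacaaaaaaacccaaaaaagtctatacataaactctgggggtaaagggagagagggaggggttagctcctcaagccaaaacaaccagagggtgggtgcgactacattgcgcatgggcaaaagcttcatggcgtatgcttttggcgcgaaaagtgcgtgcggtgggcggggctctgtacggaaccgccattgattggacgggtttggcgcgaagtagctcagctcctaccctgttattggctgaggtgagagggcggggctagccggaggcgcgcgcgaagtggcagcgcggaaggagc

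Leaving out Vkine replicate 1 raised the number of genes called by edgeR from 4 to 28 (23 higher, 5 lower), and the 4 were among them. The genes named here from that fit were chosen after their values were seen. In 11 of the 23 higher genes Vkine replicate 1 was itself above EV, in 5 it was within EV and in 7 it was below every EV sample. Over all genes, Vkine replicates 2 and 3 lay together on one side of EV in 5343 genes. Vkine replicate 1 was on the same side in 2609 of these, within EV in 1594 and on the other side in 1140. Members without overlap were then 18 of 21 inflammatory cytokines, 16 of 22 mature migratory dendritic cell genes, 15 of 18 glycolysis genes and 10 of 18 NRF2 and iron genes, where 19.4% of all genes lay above. Without EV replicate 2 it was 18 of 33 DNA replication genes and 7 of 26 mitosis genes that lay below, where 13.1% of all genes did.

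Bcl2l11, the gene of the death-promoting protein BIM, had 175, 128 and 155 CPM in EV and 117, 371 and 331 CPM in Vkine. Nr4a3, an orphan nuclear receptor induced by activation, had 153, 114 and 109.7 CPM in EV and 71.3, 280.2 and 268 CPM in Vkine, and Hbegf, a growth factor of the EGF family, had 16.3, 20.1 and 19.7 CPM in EV and 13.5, 37.9 and 40.6 CPM in Vkine. In these 3 genes Vkine replicate 1 was the lowest of all 6 samples, and replicates 2 and 3 were the highest. Sgk1, a kinase induced by stress and glucocorticoids, had 330.0, 373 and 434 CPM in EV and 708, 731 and 746 CPM in Vkine, and there the 3 Vkine samples were alike. Ly6a, the interferon-inducible antigen Sca-1, had 29.2, 28.5 and 24.9 CPM in EV and 103, 52.7 and 58.6 CPM in Vkine, with Vkine replicate 1 highest. Pdgfa, a growth factor for mesenchymal cells, had 30.9, 41.9 and 34.6 CPM in EV and 20.6, 14.2 and 15.6 CPM in Vkine and was lower in all 3 Vkine samples. With all 6 samples DESeq2 called Sgk1, Ly6a and Pdgfa (adjusted p = 1.9e-05, 0.00013 and 0.0037). Trem1, an amplifying receptor of myeloid cells, had 321, 288 and 359.6 CPM in EV and 263, 636 and 598 CPM in Vkine.

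**Figure D4:**
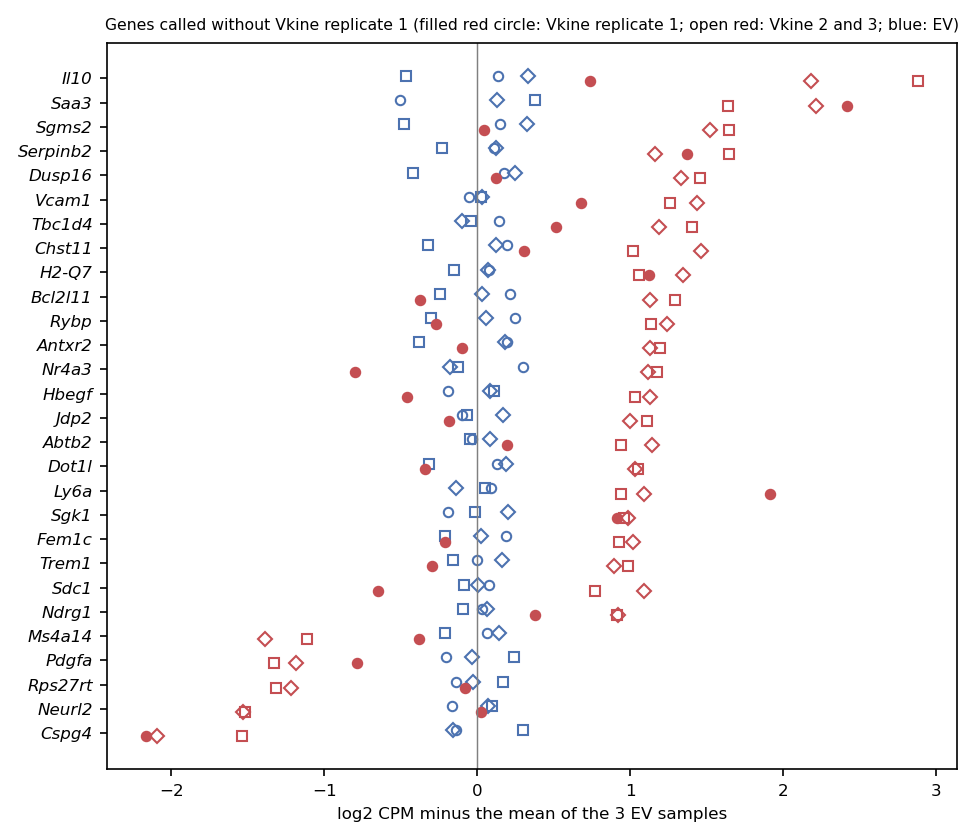
The 28 genes called when Vkine replicate 1 is left out, as log2 CPM minus the mean of the 3 EV samples (x). Filled red circles are Vkine replicate 1, open red squares and diamonds are Vkine replicates 2 and 3, and blue symbols are EV. In 7 of the 23 higher genes the filled circle lies below every EV sample.

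Genes that responded to Vkine in resting MutuDC were then followed in the tumor CD45 cells, which share no sample with that comparison. In MutuDC 2261 genes were called higher and 2446 lower by edgeR, 16.9% and 18.3% of 13357. Of the higher ones 2073 were tested in tumor CD45 cells, and 59.3% of them had a positive fold change there (median 0.088), against 46.9% of the 11698 genes tested in both sets (median -0.025). Every Vkine sample was above every EV sample in 15.7% of them and in 8.55% of all genes tested in both. The share was 24.3% among the 428 genes with a log2 fold change over 1 in MutuDC, with a median of 0.38. Of the 2342 genes called lower, 38.1% were positive in tumor CD45 cells (median -0.075), and 12.9% lay below without overlap, against 10.2% of all. Among the 158 with a log2 fold change under -1, the median was -0.004 and 8.86% lay below.

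**Figure D5:**
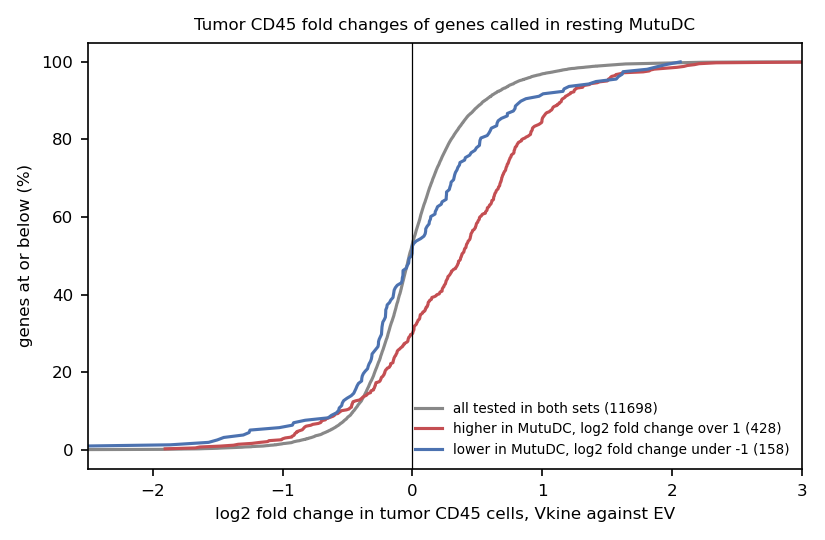
Cumulative share of genes (y, percent) by their log2 fold change of Vkine against EV in tumor CD45 cells (x). The red curve of 428 genes higher in resting MutuDC lies to the right of the grey curve of 11698 genes, and the blue curve of 158 genes lower in MutuDC crosses 0 close to the grey one.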

How the data were processed

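RNA of 6 tumor CD45 samples and 11 MutuDC samples was sequenced. Per the labels' protocols, RNA was isolated with a column kit and libraries were made with a NEBNext Ultra kit. Per the submitters' processing notes, the build was GRCm38 and the tools named are featureCounts 1.5.0-p3, STAR, fastp and DESeq2 1.20.0. No source states the strand setting of the counting. Counts are the authors' deposited raw reads per Ensembl gene. The deposited FPKM, which the authors scaled by gene length and library total with 1 further factor per sample, served for an alternative. Symbols and coordinates come from the deposited table.

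The genes, gene lists and tests were chosen with earlier results of these data known. Samples were grouped by sample type. Genes were filtered with filterByExpr on the groups, scaled by TMM and tested with the edgeR 4.0.16 quasi-likelihood F test with robust estimation under R 4.3.3, 3 samples against 3, with Benjamini-Hochberg adjustment and a threshold of 0.05. The SE is the log2 fold change divided by the square root of F. Resting MutuDC was tested in 1 model over its 4 groups. The difference between the sets was tested as an interaction in limma 3.58.1 (voom with sample weights per set). It is given for the called genes that passed the count filter in both sets. The pipeline was tested on simulated counts.

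61 lists were described by their counts and medians, with no test of a list. Log2 CPM for list means used a prior count of 2. Named genes are those called, up to 10 per direction with the largest fold change among non-overlapping protein-coding genes at a mean log2 CPM of 2 or more (predicted genes and receptor segments left out), up to 4 members of a list with the smallest p, Ptprc, Vcan, the sex-linked genes, and the Saa, Serpinb and H2-Q relatives of called genes. Foxp3, Itgam, H2-T22, H2-K1, H2-D1 and the genes named without Vkine replicate 1 were chosen after their values were seen. Promoters were read from the RefSeq table on GRCm38.p6.

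The alternatives were DESeq2 and upper-quartile factors, no count filter, a filter of CPM of at least 1 in 3 samples, DESeq2 1.42.0, edgeR without robust estimation, limma-trend with log2 FPKM and a pseudocount of 1 or 0.1, a replicate block, and leaving out each sample. Chosen after seeing the data were DESeq2 and leaving out samples in MutuDC, and the counts of members without overlap when EV replicate 2 or Vkine replicate 1 is left out. Figures were drawn with matplotlib 3.10.9.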

Additional observations from a re-analysis of the deposited data

How the results depend on the processing

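The number of genes called in tumor CD45 cells, 4 by the main test, depended on the method. Without a low-count filter it was 511 and with DESeq2 213, and both kept the 4 genes. It was 4 with DESeq2 size factors, and 3 with upper-quartile factors and with the stricter filter. edgeR without robust estimation called 0 genes (1703 at an unadjusted p under 0.05), limma-trend called 0 on log2 FPKM plus 1 (1731) and 0 on log2 FPKM plus 0.1 (1674). Leaving out 1 sample gave 0 to 28 genes, and the count at an unadjusted p under 0.05 was then 822 to 2485. The replicate block, which pairs R1 with L1 and R2 with L2, called 0 genes (617 at an unadjusted p under 0.05). It gave EV replicate 3 and Vkine replicate 3 a block of their own each, so its effect rests on the paired samples alone. The deviations of the paired samples correlated at -0.05 and 0.04, so the numbers are not shown to pair the samples, and a call lost under the block is not a weaker effect. Over 15 alternatives each, the fold changes of the 4 genes kept their sign in all 60 values and missed the threshold in 37. The ranges were 1.87 to 2.27 for Saa3, 1.26 to 1.57 for Serpinb2, 1.09 to 1.23 for H2-Q7 and -2.14 to -1.40 for Cspg4, with adjusted p up to 0.38. The cause of these shifts was not tested. Of 900 list medians under the alternatives 46 moved by more than the SD between replicates, and 48 of 60 lists kept the sign of the median whichever sample was left out. In resting MutuDC leaving out 1 sample gave 2748 to 4376 called genes, against 4707 with all and 4447 with DESeq2. The interaction of H2-Q7 and Saa3 was not called under any alternative run. At this depth Saa1 and Saa2, with 3 and 4 counts over the 6 libraries, could not be tested.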
